A study of Mus musculus with 16 samples.

Results

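The ADAM, ADAMTS and ADAMTSL genes were followed in primary mouse mammary fibroblasts, and the clearest change was a rise of ADAMTS4 with tumor cell conditioned medium in both genotypes. The members were every gene whose symbol is ADAM, ADAMTS or ADAMTSL followed by a number, which gave 43 of the 18132 genes in the table. ADAM19, ADAMTS5, ADAMTS6, ADAMTS9, ADAMTS10 and ADAMTS14 were not analysed here.

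The fibroblasts came from inguinal mammary glands of female mice of strain 129S6, aged 8 to 10 weeks. One genotype was MEKK1+/+ and the other MEKK1-/-, which lacks the kinase encoded by MAP3K1. Cells of each genotype received plain growth medium (untreated, the control) or medium conditioned by MDA-MB-231 cells, a human breast cancer line (treated), for 8 h. There were 16 Illumina Mouse 8 arrays in 4 groups of 4, and the mouse behind each culture is not named. By the study's methods the fibroblasts of each genotype came from fewer mice than a group has cultures, so some cultures of a group share a mouse. The p-values treat the 4 cultures as separate, measure the spread between cultures and may be too small for a statement about mice. In bulk cultures, fewer cells of a type and less RNA per cell cannot be told apart.

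ADAMs are membrane proteins that carry a metalloprotease domain and a disintegrin domain, and the active ones release the outer part of growth factors, cytokines, adhesion molecules and receptors from the cell surface. ADAMTS proteins are secreted, bind the extracellular matrix and cut proteoglycans, procollagens and other matrix proteins. ADAMTSL proteins resemble the ADAMTS proteins but lack the protease domain.

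All levels below are normalized log2 intensities and all differences are on the log2 scale, with adjusted p from limma over all genes and a threshold of 0.05. The exception is differences of z-scores, which are in SD units of an array's log intensities. The array medians ran from 114 to 170.1 as deposited, and before normalization between arrays the median gene shifted by -0.28 with conditioned medium in MEKK1+/+ cells and by -0.02 in MEKK1-/- cells. MAP3K1 showed no reduction under the MEKK1-/- label (log2 difference 0.53 untreated, adjusted p = 0.465 from limma), so genotype rests on the labels. Of 14 fibroblast markers, 12 were above the level defined next on every array. Of 16 macrophage markers in the table, 7 were above it on every array, ITGAM, PTPRC and FCER1G were on none, and the median difference of the 16 between genotypes was -0.65 untreated, with 0 called by limma. Their summed intensity ran from 9849 to 24793 in untreated MEKK1+/+ cultures and from 4552 to 18648 in untreated MEKK1-/- cultures. Of 11 markers of epithelial cells in the table, 1 was above the level on every array, and KRT5, ELF5, WAP and CSN2 were on none. These 11 ran the other way, with a median difference of 0.33 and summed intensities of 1437 to 1558 against 1518 to 11744. Of 10 endothelial markers, 1 was above the level on every array, and KDR and TIE1 were on none. The 10 differed by a median of 0.26, with 1467 to 1744 against 1705 to 2882. Limma called 0 of either list. In both genotypes the arrays numbered 2 lay toward the other genotype in the macrophage markers.

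A level without signal was taken as the 99th percentile of 1075 olfactory receptor genes on each array, which lay between 7.20 and 7.34 after normalization. Above it on every array were 9 members (20.9%), against 38.2% of all genes. These were ADAM9, ADAM12, ADAM15, ADAM17, ADAM23, ADAMTS2, ADAMTS4, ADAMTS7 and ADAMTSL5. A further 7 members (16.3%) passed the level on some arrays, and 27 (62.8%) on none. ADAMTSL4 passed on 15 arrays, ADAMTS15 on 14, ADAMTS1 on 11, ADAM8 on 8 and ADAM33 on 4, while ADAM32 and ADAMTS16 passed on 1 each.

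By role, 4 of the 8 catalytic ADAMs of many tissues were above the level throughout. ADAM10, the main sheddase of Notch, was on none, at 6.85 to 7.08. For it and the other members below the level, absent RNA and a weak probe cannot be told apart here. Of the 3 ADAMs without a catalytic zinc site, ADAM23 was above and ADAM11 and ADAM22 were on none. Among the 15 ADAMs of testis, epididymis or less known function 0 passed on every array, and their mean levels lay between 6.67 and 7.06. Of the 5 hyalectanases, which cut aggrecan and versican, ADAMTS4 was above throughout, ADAMTS1 and ADAMTS15 in part, and ADAMTS8 and ADAMTS20 on none. The procollagen N-propeptidases were divided, with ADAMTS2 above on every array and ADAMTS3 on none.

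**Figure D1:**
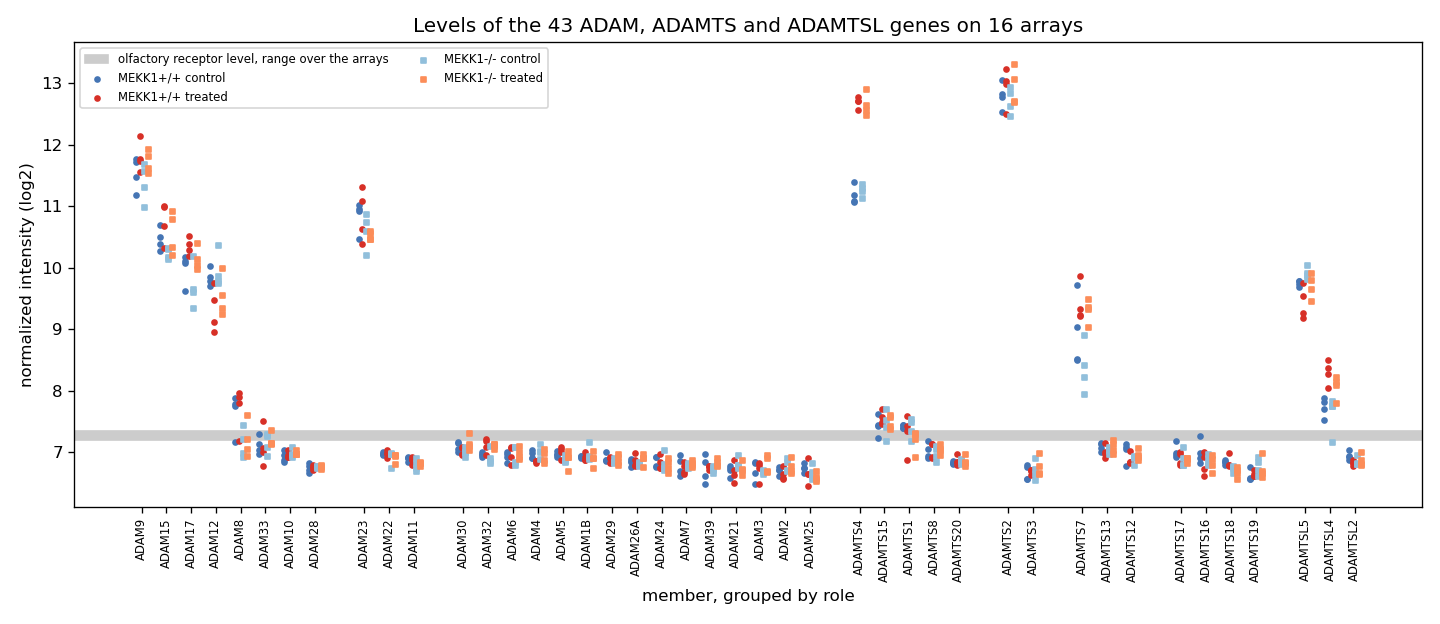
Normalized log2 intensity (vertical axis) of each of the 43 members on the 16 arrays, grouped by role along the horizontal axis, with colours for the 4 groups and the grey band for the olfactory receptor level of 7.20 to 7.34. Only 9 members stood above the band on every array, and 27 stood above the level on none.

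Promoter sequence is shown for ADAMTSL4, called higher with conditioned medium in MEKK1+/+ cells, and for ADAM17. In MEKK1-/- cells ADAM17 passed the threshold in some alternatives, such as the replicate block described below, and not in the main fit. RefSeq gave the promoter sequence of both genes here. It is the 250 bases before the transcription start, 5' to 3' on the gene's strand in GRCm38.p6, and capitals mark matches to the GC box GGGCGG. Adamtsl4 lies at chr3:95687918-95688167 (minus strand) and Adam17 at chr12:21373633-21373882 (minus strand).
Adamtsl4: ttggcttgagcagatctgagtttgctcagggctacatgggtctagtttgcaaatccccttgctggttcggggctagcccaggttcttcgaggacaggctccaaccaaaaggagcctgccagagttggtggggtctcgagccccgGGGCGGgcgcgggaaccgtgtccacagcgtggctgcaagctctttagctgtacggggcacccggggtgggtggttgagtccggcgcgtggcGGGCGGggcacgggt
Adam17: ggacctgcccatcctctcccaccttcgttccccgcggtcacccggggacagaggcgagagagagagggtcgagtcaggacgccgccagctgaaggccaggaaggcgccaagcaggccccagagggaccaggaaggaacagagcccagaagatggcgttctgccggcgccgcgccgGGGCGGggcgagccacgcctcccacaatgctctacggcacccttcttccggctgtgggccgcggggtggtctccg
Searched on both strands were the GC box, the AP-1 motif TGANTCA, the TATA box TATAAA and the NF-kB motif. The Adamtsl4 window held 2 GC boxes and the Adam17 window held 1, and neither held the other motifs. Windows were given for 21 members. ADAMTS4, ADAMTS7, ADAM9 and ADAM12 were not among them, so their promoters were not searched. A GC box was in 12 of these 21 and in 32.7% of 32851 mouse promoter windows. An AP-1 match was in 2 of 21 (6.75% of all windows), a TATA box in 3 (12.4%) and an NF-kB match in 1 (3.90%).

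The response to conditioned medium was compared within each genotype. In MEKK1+/+ cells 2 members rose, ADAMTS4 and ADAMTSL4, which is 4.65% of the 43 against 2.27% of all genes called higher. By limma 0 members fell (2.75% of all genes). The z-test called 3 lower (6.98%, against 5.45% of all genes). Of these, ADAM4 and ADAMTSL2 were above the olfactory receptor level on no array, and ADAMTSL5 was above it throughout. At an unadjusted p under 0.05 from limma 2 members were lower (4.65%, against 8.64%). The MEKK1-/- cells also showed 2 rises, ADAMTS4 and ADAMTS7, against 2.18% of all genes. There 0 fell by limma (2.51% of all genes), and 0 members were lower at an unadjusted p under 0.05 (8.54% of all genes). The replicate number was also used as a block within genotype. The numbers were taken to pair the arrays of MEKK1-/- cells, which the check described at the end could not establish. That fit blocked the MEKK1+/+ arrays by number too, although those numbers were not taken as pairs. Both genotypes shared its estimate of the spread, so its p-values rest in part on the MEKK1+/+ numbers. With this block 5 members were called in MEKK1-/- cells. ADAMTS4, ADAMTS7, ADAMTSL4 and ADAM17 were higher (4.02% of all genes) and ADAM12 lower (3.91%). Arrays did not overlap between treatments for 4 members in MEKK1+/+ cells (9.30%, against 9.70% of all genes) and for 3 in MEKK1-/- cells (6.98%, against 10.4%), which is close to or under the background. The median log2 difference over the 43 members was 0.00 and 0.03, against 0.00 over all genes in both genotypes. Most of the 43 were above the olfactory receptor level on no array. Over the 9 members above it throughout, the median was 0.27 and 0.33, against 0.00 and -0.01 over all such genes. These medians were not tested, and in MEKK1+/+ cells several of the 9 changed sign on the values as deposited.

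ADAMTS4, an aggrecanase that also cuts versican, was read at 11.07, 11.18, 11.08 and 11.39 on the untreated MEKK1+/+ arrays and at 12.77, 12.71, 12.71 and 12.57 treated. The MEKK1-/- arrays read 11.25, 11.30, 11.36 and 11.13 untreated and 12.49, 12.57, 12.91 and 12.65 treated. Every treated array lay above every untreated array of either genotype. The rise was 1.50 in MEKK1+/+ cells (SE 0.09, 2.84-fold, adjusted p = 9.81e-07 from limma) and 1.40 in MEKK1-/- cells (SE 0.09, 2.64-fold, adjusted p = 1.37e-06). The 2-sided exact permutation p was 0.0286 in each, the smallest that 4 arrays against 4 allow. The difference between the rises, MEKK1-/- minus MEKK1+/+, was -0.10 (95% interval -0.38 to 0.17, adjusted p = 1.00 from limma), and its sign changed with the values as deposited. The rise was called in each alternative that was run.

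ADAMTSL4, a matrix glycoprotein that binds fibrillin, was at 7.71, 7.53, 7.82 and 7.88 on untreated MEKK1+/+ arrays and at 8.37, 8.04, 8.28 and 8.50 treated. The MEKK1-/- arrays read 7.17, 7.75, 7.76 and 7.83 untreated and 7.80, 8.10, 8.14 and 8.22 treated. The treated MEKK1+/+ arrays were all above the untreated ones, while in MEKK1-/- cells the groups overlapped. The rise was 0.56 in MEKK1+/+ cells (SE 0.14, 1.48-fold, adjusted p = 0.0328 from limma). In MEKK1-/- cells the difference was 0.44 (SE 0.14, adjusted p = 0.104 from limma, 0.00314 with the replicate block within genotype). The difference between genotypes in this response was -0.12 (95% interval -0.55 to 0.30). The call in MEKK1+/+ cells was lost on the values as deposited (0.24, adjusted p = 0.330 from limma), with the same array median and without the arrays numbered 2. It was also lost when any of 6 of the 16 arrays was left out, with 0.49 to 0.65 over all arrays. The 6 were the 4 arrays of MEKK1+/+ cells numbered 1 or 3, MEKK1+/+ control replicate 2 and MEKK1+/+ treated replicate 4.

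ADAMTS7, which cuts cartilage oligomeric matrix protein, read 8.51, 8.50, 9.03 and 9.72 on untreated MEKK1+/+ arrays and 9.21, 9.24, 9.33 and 9.86 treated. On MEKK1-/- arrays the values were 8.22, 8.90, 8.42 and 7.95 untreated and 9.33, 9.50, 9.04 and 9.37 treated. The MEKK1-/- groups did not overlap, and the MEKK1+/+ groups did, as untreated replicate 4 lay within the treated range. The rise in MEKK1-/- cells was 0.94 (SE 0.25, 1.91-fold, adjusted p = 0.0463 from limma). In MEKK1+/+ cells the difference was 0.47 (SE 0.25, adjusted p = 0.386 from limma), with 0.09 on the values as deposited and 0.32 to 0.73 when 1 array was left out. The difference between genotypes was 0.47 (95% interval -0.29 to 1.23, adjusted p = 1.00 from limma, 0.77 as deposited), so a different response was not shown. The call in MEKK1-/- cells was lost in 10 of the 16 fits that left out 1 array (0.79 to 1.11, adjusted p from 0.0133 to 0.147) and on the values as deposited (0.86, adjusted p = 0.135). Every MEKK1-/- array but untreated replicate 2 was among those 10, together with MEKK1+/+ control replicate 3 and MEKK1+/+ treated replicates 1 and 3. The call was also lost with the same array median, the pseudocount of 16 and a replicate block shared by the genotypes. The replicate block within genotype gave an adjusted p of 0.00356 from limma.

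**Figure D2:**
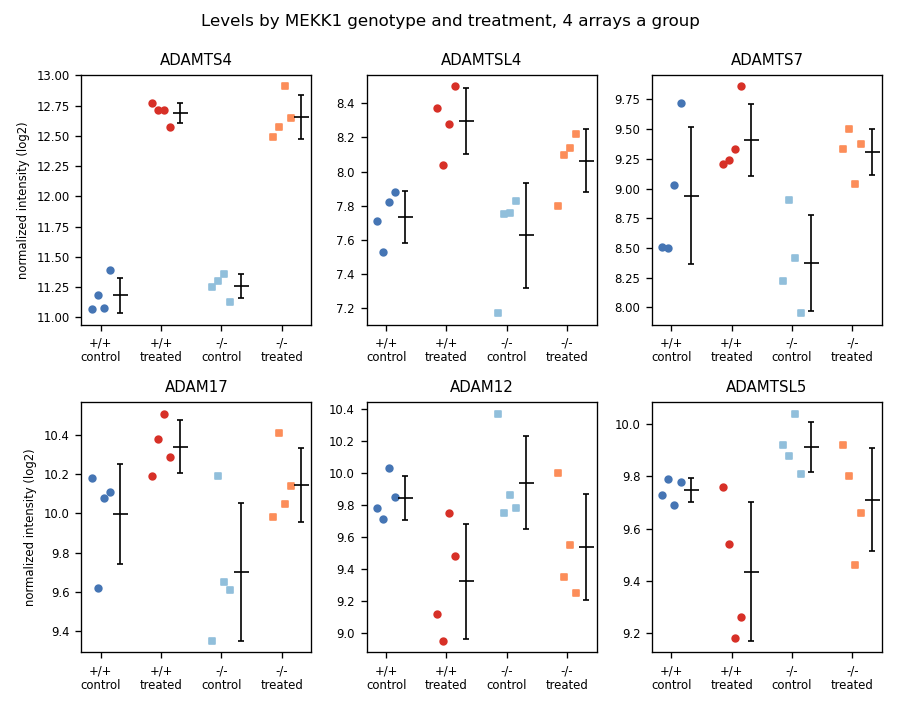
Normalized log2 intensity (vertical axis) of 6 members in the 4 groups along the horizontal axis, 1 point an array in order of replicate number, with the group mean and SD as the bar beside the points over the 4 arrays. ADAMTS4 separated all treated arrays from all untreated arrays, and the differences of the other 5 members were smaller.

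ADAM17, the sheddase of TNF and of several EGF receptor ligands, was at 10.18, 9.62, 10.08 and 10.11 on untreated MEKK1+/+ arrays and at 10.19, 10.38, 10.51 and 10.29 treated. The MEKK1-/- arrays read 9.35, 10.19, 9.65 and 9.61 untreated and 9.98, 10.41, 10.05 and 10.14 treated. Untreated replicate 2 lay below its group in MEKK1+/+ cells and above its group in MEKK1-/- cells. The difference with conditioned medium was 0.34 in MEKK1+/+ cells (adjusted p = 0.295 from limma, -0.06 on the values as deposited) and 0.45 in MEKK1-/- cells (adjusted p = 0.149 from limma). With the replicate block within genotype the MEKK1-/- difference had an adjusted p of 0.038, and without MEKK1-/- control replicate 2 it was 0.61 (adjusted p = 0.0216).

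ADAM12, a membrane protease linked to growth factor shedding and cell adhesion, differed the other way. Its levels were 9.78, 9.71, 10.03 and 9.85 on untreated MEKK1+/+ arrays and 9.12, 8.95, 9.75 and 9.48 treated. The MEKK1-/- arrays read 10.37, 9.75, 9.86 and 9.78 untreated and 10.00, 9.35, 9.55 and 9.25 treated. In MEKK1-/- cells, where the numbers were taken as pairs, each treated array was below the untreated array of its own number. The groups overlapped in both genotypes. The difference was -0.52 in MEKK1+/+ cells (SE 0.19, adjusted p = 0.152 from limma) and -0.40 in MEKK1-/- cells (SE 0.19, adjusted p = 0.316, 0.0173 with the replicate block within genotype). On the values as deposited the MEKK1+/+ difference was -0.94 (adjusted p = 0.0486 from limma).

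ADAMTSL5, a secreted glycoprotein of the matrix, was at 9.73, 9.79, 9.69 and 9.78 on untreated MEKK1+/+ arrays and at 9.76, 9.54, 9.18 and 9.26 treated. In MEKK1-/- cells it was 9.92, 9.88, 10.04 and 9.81 untreated and 9.92, 9.80, 9.46 and 9.66 treated. Treated replicate 1 stayed at the untreated level in both genotypes. The difference with conditioned medium was -0.31 in MEKK1+/+ cells (adjusted p = 0.163 from limma, 0.0362 without MEKK1+/+ treated replicate 1, 0.0472 with the values as deposited) and -0.20 in MEKK1-/- cells (adjusted p = 0.446).

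The other 4 members above the olfactory receptor level throughout passed no threshold with conditioned medium. ADAM9, a sheddase of broad expression, differed by 0.27 in MEKK1+/+ cells (adjusted p = 0.481 from limma, -0.17 as deposited) and by 0.34 in MEKK1-/- cells (adjusted p = 0.338). ADAM15, which binds integrins, differed by 0.28 (adjusted p = 0.464, -0.13 as deposited) and 0.33 (adjusted p = 0.368 from limma). ADAMTS2, which removes the amino-terminal propeptide of fibrillar procollagens, differed by 0.14 (adjusted p = 0.787, -0.27 as deposited) and 0.23 (adjusted p = 0.614 from limma). ADAM23, a catalytically inactive adhesion protein known from neurons, differed by 0.01 (adjusted p = 0.994) and -0.08 (adjusted p = 0.912 from limma), and the sign of the first changed with the scaling. All 4 had an interval that included 0.

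**Figure D3:**
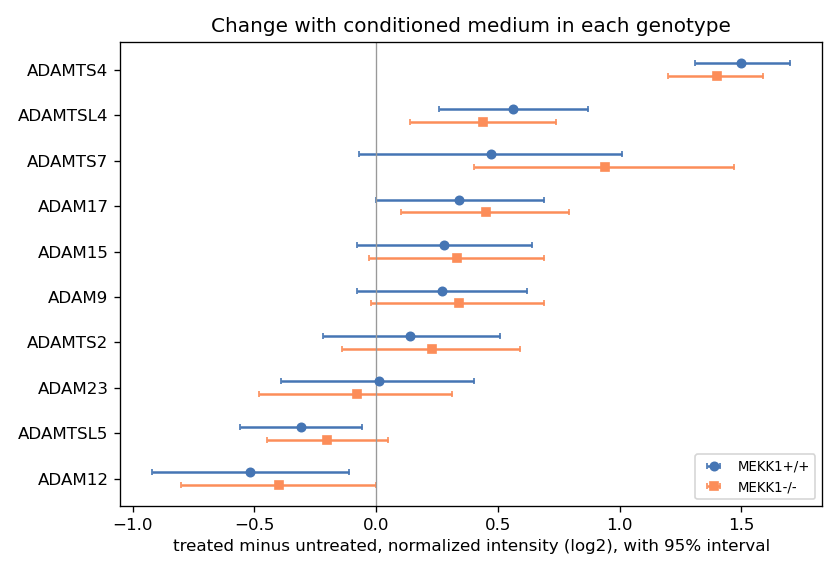
Log2 difference of treated from untreated cells (horizontal axis) with its 95% interval for the 10 members described in full, circles for MEKK1+/+ and squares for MEKK1-/- cells. The ADAMTS4 intervals lay above 1 in both genotypes, and the intervals of the 2 genotypes overlapped for every member shown.

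The genotypes were compared next, untreated and with conditioned medium. By limma 0 of the 43 members were called in untreated cells and 0 of all genes (0%). The z-test called ADAM15 lower and ADAMTS20 higher (4.65% of members, against 4.51% of all genes). ADAMTS20, like ADAMTS18 and ADAM30 below, was above the olfactory receptor level on no array. The unadjusted p was under 0.05 for ADAM8 and ADAMTS7 (4.65%, against 9.27%). With conditioned medium 0 members were called, against 0.00552% of all genes, and ADAM8, ADAMTS18 and ADAMTSL5 had an unadjusted p under 0.05 (6.98%, against 8.09%). Arrays of the genotypes did not overlap for 2 members in untreated cells (4.65%, against 4.61% of all genes) and for 2 members with conditioned medium (4.65%, against 4.17%). Those shares were near the background. ADAMTSL5 was above all untreated MEKK1+/+ arrays, by 0.17 (adjusted p = 0.667 from limma), a sign that changed to -0.07 as deposited and to -0.09 with arrays scaled to the same median. For the interaction of genotype with conditioned medium 0 members were called by limma (0% of all genes) and by the z-test (0.11%), with ADAM30 at an unadjusted p under 0.05 against 2.61% of all genes.

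ADAM8, a membrane protease best known from leukocytes, was at 7.75, 7.16, 7.79 and 7.89 on untreated MEKK1+/+ arrays and at 7.97, 7.18, 7.90 and 7.80 treated. The MEKK1-/- arrays read 7.22, 7.45, 6.99 and 6.93 untreated and 7.22, 7.61, 6.94 and 7.06 treated. In MEKK1+/+ cells the arrays numbered 2 were the lowest, and in MEKK1-/- cells they were the highest. ADAM8 passed the olfactory receptor level on 3 of 4 arrays in each MEKK1+/+ group. In each MEKK1-/- group it passed on 1 of 4, so the sizes of its differences are uncertain. The difference of MEKK1-/- from MEKK1+/+ was -0.50 untreated (SE 0.20, adjusted p = 0.511 from limma) and -0.51 with conditioned medium (SE 0.20, adjusted p = 0.568). The mean level of the 16 macrophage markers ran the same way by array. It was 9.20, 8.27, 9.07 and 8.98 on untreated MEKK1+/+ arrays and 8.24, 8.84, 7.67 and 7.71 on untreated MEKK1-/- arrays. With conditioned medium the marker mean was 9.11, 8.43, 9.06 and 8.92 in MEKK1+/+ cells and 8.43, 8.75, 7.74 and 7.77 in MEKK1-/- cells. The part of macrophage RNA in the ADAM8 difference was not tested. Without the 4 arrays numbered 2, which were picked after these levels had been seen, the ADAM8 difference was -0.76 untreated and -0.82 with conditioned medium. The arrays were picked on values that move with ADAM8, so that larger difference is no support for one between genotypes.

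**Figure D4:**
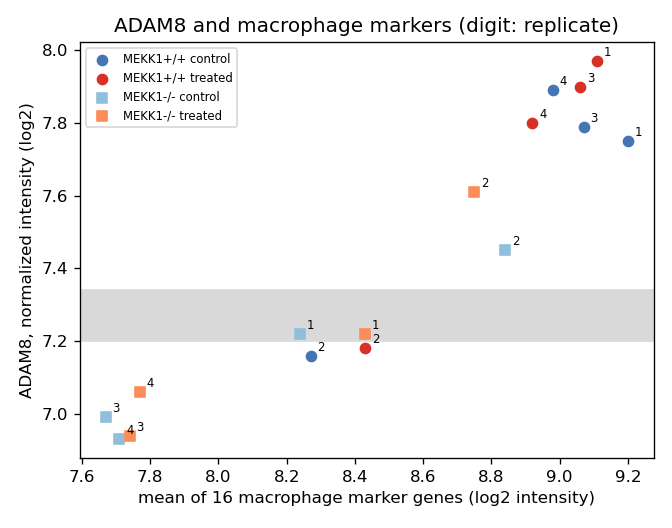
ADAM8 level (vertical axis) against the mean level of 16 macrophage markers (horizontal axis), both as normalized log2 intensity, for the 16 arrays, with the digit giving the replicate number and the grey band the olfactory receptor level. The arrays numbered 2 of MEKK1+/+ cells (ADAM8 at 7.16 and 7.18) lay below those numbered 2 of MEKK1-/- cells (7.45 and 7.61) on both axes.

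The proteins that hold these proteases in check or help them mature were read from a list of inhibitors, activators and partners, with 18 of 22 genes in the table and 13 above the olfactory receptor level throughout. In each genotype 1 of the 18 rose and 1 fell with conditioned medium, beside 2.27% of all genes higher and 2.75% lower in MEKK1+/+ cells and 2.18% and 2.51% in MEKK1-/- cells. TIMP3, the tissue inhibitor of metalloproteases that blocks ADAM17 and the aggrecanases, was at 12.96, 12.86, 12.93 and 12.52 on untreated MEKK1+/+ arrays and at 12.21, 11.64, 12.13 and 11.73 treated. In MEKK1-/- cells it was 12.71, 13.08, 13.09 and 13.16 untreated and 12.10, 11.76, 12.19 and 12.04 treated. All treated arrays were below all untreated arrays. The fall was -0.90 in MEKK1+/+ cells (SE 0.14, adjusted p = 0.00260 from limma) and -0.99 in MEKK1-/- cells (SE 0.14, adjusted p = 0.00127, 0.197 on the values as deposited).

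RHBDF2 encodes iRhom2, which carries ADAM17 to the cell surface. It was at 7.39, 7.40, 7.66 and 7.62 on untreated MEKK1+/+ arrays and at 8.04, 7.90, 7.65 and 8.16 treated. The MEKK1-/- arrays read 7.52, 7.34, 7.36 and 7.42 untreated and 8.01, 8.11, 7.68 and 7.96 treated. The groups overlapped in MEKK1+/+ cells and did not in MEKK1-/- cells. The rise was 0.42 in MEKK1+/+ cells (adjusted p = 0.0399 from limma) and 0.53 in MEKK1-/- cells (adjusted p = 0.0120). On the values as deposited these were 0.12 (adjusted p = 0.448) and 0.50 (adjusted p = 0.181), and the MEKK1+/+ call was lost in 9 of the 16 fits that left out 1 array (0.35 to 0.51).

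Of 27 membrane proteins known to be shed by ADAMs, 12 were above the level throughout. In MEKK1+/+ cells 2 of the 27 rose and 1 fell (2.27% and 2.75% of all genes), and in MEKK1-/- cells 4 rose and 1 fell (2.18% and 2.51% of all genes). ICAM1, an adhesion receptor for leukocytes, rose by 2.67 and 3.55 (adjusted p = 0.000434 and 5.94e-05 from limma). CX3CL1, a membrane-bound chemokine, rose by 1.95 and 1.72 (adjusted p = 0.00107 and 0.00233 from limma). CXCL16, another membrane-bound chemokine, differed by 1.31 in MEKK1+/+ cells (adjusted p = 0.144 from limma, 0.83 to 1.78 with 1 array left out, and called, at 0.0208, in 1 of those 16 fits, the one without MEKK1+/+ control replicate 4). It rose by 2.13 in MEKK1-/- cells (adjusted p = 0.0169 from limma), a call lost without MEKK1-/- control replicate 3 or 4 or MEKK1-/- treated replicate 2 (1.89 to 2.45 over all 16 fits). AREG, an EGF receptor ligand, was called higher in MEKK1-/- cells (adjusted p = 0.0436 from limma, lost in 9 of the 16 fits that left out 1 array) and not in MEKK1+/+ cells (adjusted p = 0.365). Among MEKK1-/- arrays, 1 untreated and all 4 treated ones exceeded the olfactory receptor level for AREG, so no size of the rise is given. TNFRSF1A, a TNF receptor, fell by 0.61 in MEKK1+/+ cells (adjusted p = 0.0114 from limma) and differed by -0.24 in MEKK1-/- cells (adjusted p = 0.405). DLL1, a Notch ligand named here after its values were seen, was called lower in MEKK1-/- cells (adjusted p = 0.0231 from limma, lost in 6 of the 16 fits that left out 1 array). There 4 of 4 untreated arrays and 0 of 4 treated arrays were above the olfactory receptor level, so no size of the fall is given. The levels are RNA, and shedding was not measured.

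Of 19 matrix proteins cut or bound by ADAMTS or ADAMTSL proteins, 10 were above the level throughout. By limma 1 rose in MEKK1+/+ cells (2.27% of all genes) and 0 in MEKK1-/- cells (2.18%), with 0 falling in either (2.75% and 2.51%). VCAN, which encodes versican, was at 7.26, 7.31, 7.08 and 7.03 on untreated MEKK1+/+ arrays and at 7.43, 7.40, 7.54 and 7.35 treated. The treated arrays lay above the untreated ones by a small margin, and 2 of the 4 untreated arrays were above the olfactory receptor level. The rise was 0.26 (adjusted p = 0.0442 from limma), was -0.02 on the values as deposited, and lost its call in 13 of the 16 fits that left out 1 array. In MEKK1-/- cells VCAN differed by 0.13 (adjusted p = 0.419 from limma). Between genotypes and for the interaction, limma called 0 genes of each of these 3 lists.

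**Figure D5:**
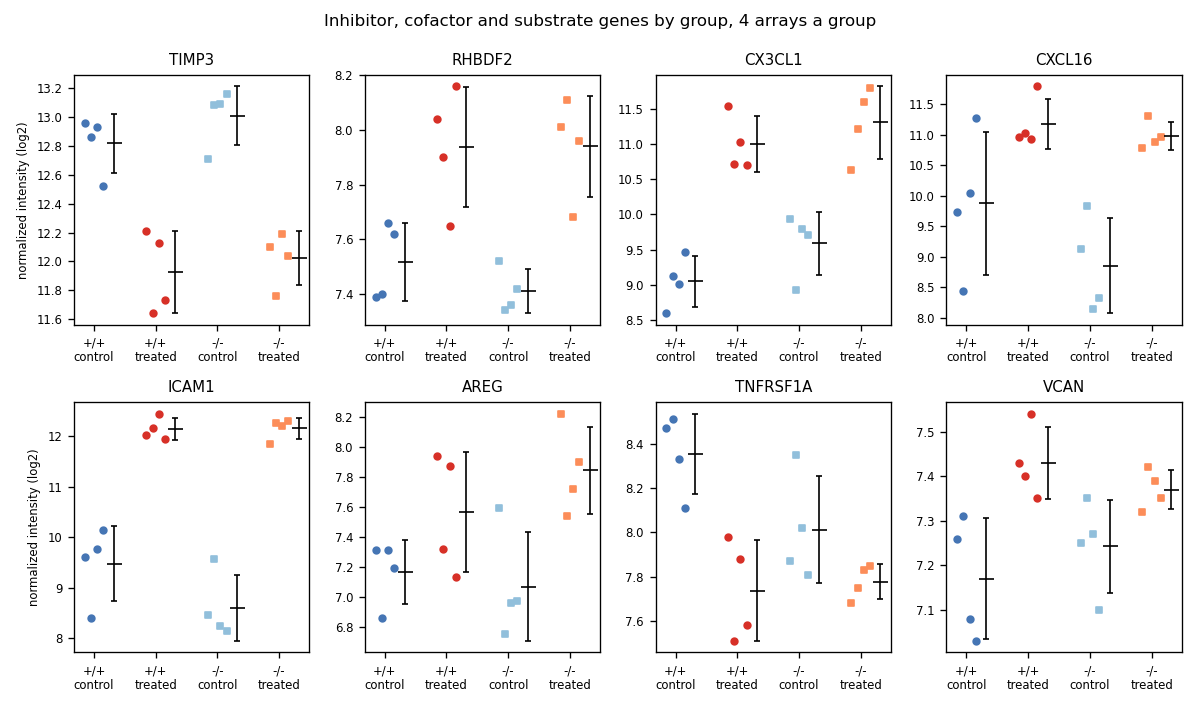
Normalized log2 intensity (vertical axis) of 8 genes for an inhibitor, a cofactor and substrates of the proteases in the 4 groups along the horizontal axis, 1 point an array, with the group mean and SD as the bar over the 4 arrays. TIMP3 fell by 0.90 and 0.99 with conditioned medium while ICAM1 and CX3CL1 rose in both genotypes.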

How the data were processed

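Gene expression was measured on 16 Illumina Mouse 8 arrays, 4 for each of 4 groups. The authors deposited linear intensity values, 1 per gene symbol and array, which the labels call normalized by a core facility; the method, the background treatment and how probes were combined are not given in the sources used here. Values were taken to log2 and quantile normalized between arrays because the array medians differed, which removes any shift common to all genes. Groups and replicate numbers came from the labels, and no array was left out. One linear model of the 4 group means was fitted in limma 3.58.1 (lmFit, eBayes, 12 residual degrees of freedom) under R 4.3.3, with 5 comparisons and Benjamini-Hochberg adjustment over all 18132 genes. Single genes also had 2-sided exact permutation tests. In data made for the conditioned medium in MEKK1+/+ cells, with independent normal values, 200 of 18132 genes were changed by 1 on the log2 scale. The fit recovered 185 of these. Smaller changes, such as those of most members, were not simulated. Tables and plots were made in Python 3.11.15.

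The members and all gene lists were chosen with earlier results of these data known. Described in full were members past the threshold in any comparison or above the olfactory receptor level throughout, then, of the other members, up to 2 examples a role of the highest mean level among those left (ADAM8 for the catalytic ADAMs) and up to 5 genes of each pathway list. Gene symbols are those of the table, of which 42 members matched RefSeq by symbol and ADAM6 by an older one.

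Whether a replicate number pairs arrays was checked by correlating, across genes, the deviations of same-numbered arrays from their group means. Between control and conditioned medium arrays it was 0.505, 0.403, 0.219 and 0.251 in MEKK1-/- cells, all above 0.1, so the numbers were taken to pair these arrays. In MEKK1+/+ cells it was -0.038, 0.485, 0.120 and 0.576, and the numbers were not taken as pairs. Arrays of different numbers were not correlated for comparison, so the check cannot show that a number pairs arrays. The p-values with the block within genotype rest on that assumption. The block within genotype used the numbers of both genotypes in 1 fit. The methods' z-scores and z-test, other scalings, a pseudocount of 16, a filter, variance models, array weights, replicate blocks and each array left out in turn were alternatives. The number of arrays limits the precision.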

Additional observations from a re-analysis of the deposited data

Results flagged for a closer look

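Of 40 groups of 4 arrays checked among the 10 members described in full, 1 held an array far from the others. ADAMTSL4 on MEKK1-/- control replicate 1 was at 7.17, with the others at 7.75, 7.76 and 7.83, and the gap to the nearest was 0.877 of the range of the group. Chance flags about 1 in 20 such groups. The cause was not tested.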

How the results depend on the processing

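ADAMTS4 was called with conditioned medium in both genotypes under every alternative, and the interaction had 0 members called in each. The values as deposited, which keep a shift of the median gene, called 3 members in MEKK1+/+ cells, 1 higher and 2 lower, where the normalized values gave 2 higher. In MEKK1+/+ cells 1 member was called with a log2 change of at least 1, with the same array median, and without the arrays numbered 2. The z-test called 5 there (ADAMTS4 and ADAMTSL4 higher, ADAM4, ADAMTSL2 and ADAMTSL5 lower). ADAM4 and ADAMTSL2 were above the olfactory receptor level on no array. Leaving out 1 array gave 1 to 2 called members in MEKK1+/+ cells. In MEKK1-/- cells 1 was called with a log2 change of at least 1, the values as deposited, the same array median, the pseudocount and the replicate block, 5 with the replicate block within genotype, and 1 to 4 when 1 array was left out (4 without MEKK1-/- control replicate 2). In MEKK1+/+ cells, where the numbers were not taken as pairs, the block within genotype called ADAM12 too (adjusted p = 0.0052 from limma). That block cannot estimate a difference between genotypes. Between untreated genotypes the z-test called 2 members. Without the 4 arrays numbered 2, an alternative chosen after seeing the data, limma called 2 members lower in untreated MEKK1-/- cells (ADAM8, and ADAM17 at -0.59) and 1 with conditioned medium (ADAM8), and these calls are no independent evidence. Counting members above the olfactory receptor level on at least 4 arrays gave 14 in place of 9.

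Of 73 results of single genes, 27 changed sign in at least 1 alternative and 1 of these, VCAN, was called. None of the changed signs had an adjusted p under the threshold, and the cause was not tested. For the conditioned medium in MEKK1+/+ cells the values as deposited gave -0.06 for ADAM17, -0.13 for ADAM15, -0.17 for ADAM9, -0.42 for ADAM23, -0.27 for ADAMTS2, -0.24 for ADAM8 and -0.02 for VCAN. For the interaction they gave 0.26 for ADAM23 and ADAM8, 0.24 for ADAMTS4 and 0.16 for ADAMTSL4. Between untreated genotypes they gave -0.15 for ADAM12, -0.21 for ADAMTS4 and -0.07 for ADAMTSL5, and with conditioned medium 0.04 for ADAMTS4 and 0.03 for ADAMTS7. The same array median gave -0.17 for ADAM12, -0.23 for ADAMTS4 and -0.09 for ADAMTSL5 between untreated genotypes, -0.24 for ADAMTS2 between genotypes with conditioned medium, and -0.13 for ADAM23 with conditioned medium in MEKK1+/+ cells. ADAM23 was there at -0.01 with array weights, and at -0.01 in SD units with z-scores and the z-test. Array weights gave -0.02 for ADAM12 between untreated genotypes and -0.12 for ADAMTS2 between genotypes with conditioned medium. Z-scores and the z-test gave, in SD units, 0.03 for ADAMTS2 between untreated genotypes and 0.02 for ADAMTS4 between genotypes with conditioned medium. Without the arrays numbered 2, ADAM23 was 0.03 with conditioned medium in MEKK1-/- cells, ADAMTS2 was -0.18 between genotypes with conditioned medium and -0.06 for the interaction, and ADAMTS4 was 0.00 between genotypes with conditioned medium.

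Leaving out 1 array gave, between untreated genotypes, -0.05 to 0.16 for ADAM12, -0.17 to 0.01 for ADAMTS2 and -0.18 to 0.05 for ADAMTSL4. Between genotypes with conditioned medium it gave -0.16 to 0.04 for ADAM9, -0.14 to 0.10 for ADAMTS2, -0.11 to 0.02 for ADAMTS4 and -0.17 to 0.05 for ADAMTS7. For the conditioned medium it gave -0.15 to 0.16 for ADAM23 and -0.10 to 0.24 for ADAM8 in MEKK1+/+ cells, and -0.22 to 0.01 and -0.08 to 0.16 in MEKK1-/- cells. For the interaction it gave -0.04 to 0.26 for ADAM12, -0.09 to 0.17 for ADAM15, -0.01 to 0.27 for ADAM17, -0.24 to 0.06 for ADAM23, -0.07 to 0.19 for ADAM9, -0.06 to 0.18 for ADAMTS2 and -0.18 to 0.16 for ADAM8. Members near the olfactory receptor level have little signal over background, so a change in them may not be detectable on these arrays.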
